A study of Mus musculus with 11 samples.

Results

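Open chromatin was compared between D2 and B6-13D2 mouse embryonic stem cells. D2 is the inbred strain DBA/2J. B6-13D2 is the congenic strain B6.D2-(rs30079041-rs51756099)/Bakr, which carries an interval of DBA/2J chromosome 13 on a C57BL/6J (B6) background. Both lines therefore have the D2 form of the interval, and they differ in the rest of the genome. The comparison used all 248336 regions of the deposited table, in 5 of the 11 libraries, 3 of D2 (cell line D2 5-5) and 2 of B6-13D2 (cell line QJ 6-1). Serving as comparison, 3 libraries each came from B6 and from D2-13B6, labelled D2.B6-(rs29224292-rs13469455)/Bakr, which has the B6 form of the interval on the D2 background. Every line was grown in medium with 15% fetal bovine serum, LIF, 1 µM PD0325901 (a MEK inhibitor) and 3 µM CHIR99021 (a GSK3 inhibitor), and each library was made from 100000 cells by FAST-ATAC and read at 150 bp. The labels call the libraries technical replicates, and each genotype is represented by 1 cell line. Errors and p-values therefore measure library-to-library variation within 1 line, and strain and line cannot be told apart.

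ATAC-seq counts the cuts that the Tn5 transposase makes in accessible DNA, at promoters, enhancers and other sites bound by proteins. Embryonic stem cells keep open the enhancers bound by pluripotency factors such as OCT4, SOX2, NANOG and ESRRB, and they silence many transposable elements through KRAB zinc finger proteins, which recruit TRIM28 and SETDB1. KRAB zinc finger genes lie in clusters that vary between mouse strains, and chromosome 13 holds one such cluster within the exchanged interval. AP-1, a dimer of JUN, FOS and ATF family proteins, binds enhancers of many cell types and responds to growth factor and stress signals.

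Sequences are printed for the 2 distal regions that had the smallest p-value in either direction among those named by rank. The ranked regions were under 50% soft-masked, and log2 fold changes among all calls reached -9.43 and 8.33. Printed are the central 300 bases of each region, on the plus strand of GRCm38 (mm10), which is the C57BL/6J sequence. Capitals mark CG dinucleotides, of which the first has 6 and the second 3. The first lies near Cbx7 and was higher in D2, and the second lies near Gm14409 and was lower in D2.
Near Cbx7, chr15:79973906-79974205: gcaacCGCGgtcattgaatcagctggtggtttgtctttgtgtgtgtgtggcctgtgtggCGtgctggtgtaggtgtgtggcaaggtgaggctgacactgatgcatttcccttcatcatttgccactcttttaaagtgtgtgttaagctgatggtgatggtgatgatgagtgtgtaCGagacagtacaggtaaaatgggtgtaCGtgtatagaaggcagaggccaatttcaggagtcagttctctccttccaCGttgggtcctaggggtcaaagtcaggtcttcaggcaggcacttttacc
Near Gm14409, chr2:177277652-177277951: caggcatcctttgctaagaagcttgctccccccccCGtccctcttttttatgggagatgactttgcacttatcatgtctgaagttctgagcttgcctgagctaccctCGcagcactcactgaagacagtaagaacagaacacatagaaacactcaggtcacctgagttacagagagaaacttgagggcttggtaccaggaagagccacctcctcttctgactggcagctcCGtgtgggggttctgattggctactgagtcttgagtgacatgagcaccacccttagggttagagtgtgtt

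The next 6 windows of 61 bases come from regions higher in D2 that hold the AP-1 motif. These regions were chosen after their values were seen, as those with the smallest p-values among AP-1 regions. Capitals mark TGAGTCA or its reverse complement TGACTCA, and all are written on the plus strand of GRCm38.
Cd244a promoter region, chr1:171559044-171559104: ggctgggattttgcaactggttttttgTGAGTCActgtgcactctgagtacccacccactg
Ifnar2 intron, chr16:91398209-91398269: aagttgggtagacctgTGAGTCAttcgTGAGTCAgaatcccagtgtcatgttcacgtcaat
Near Kdr, chr5:75990386-75990446: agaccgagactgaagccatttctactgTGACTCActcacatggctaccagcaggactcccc
Cacna2d3 locus, chr14:29082420-29082480: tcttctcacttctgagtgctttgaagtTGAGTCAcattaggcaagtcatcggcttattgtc
Near Igfbp3, chr11:7237814-7237874: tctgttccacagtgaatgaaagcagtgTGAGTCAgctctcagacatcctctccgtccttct
Near Med13, chr11:86380557-86380617: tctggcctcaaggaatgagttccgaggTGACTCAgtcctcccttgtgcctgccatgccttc

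Total counts in regions were 34945034 to 39770267 per D2 library and 18807653 to 20022534 per B6-13D2 library, so the D2 values carry less counting error. Over the 246840 regions tested, Pearson correlations of log2 CPM, taken across regions, were 0.955 to 0.964 between D2 libraries, 0.935 between the B6-13D2 libraries and 0.872 to 0.884 between the lines. Pairs of libraries of a line differed by more than sampling noise, with chi-square per degree of freedom of 2.11 for B6-13D2 and 2.98 to 4.12 for D2, and all were kept. Each of the 8 core pluripotency genes examined had a promoter region in the region set, which all libraries share. The sum of normalised CPM over their 13 promoter regions was 258 to 280 in D2 and 291 to 301 in B6-13D2. This does not check the labelled cell type, since all 8 trophoblast marker genes examined had promoter regions as well. Over those 12 trophoblast promoter regions the sum was 156 to 181 in D2 and 159 to 166 in B6-13D2.

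Accessibility differed between the lines at 46459 of the 246840 regions tested (18.8%), by edgeR's quasi-likelihood test at a Benjamini-Hochberg adjusted p under 0.05. Of these, 28597 were higher in D2 (11.6% of all tested) and 17862 were lower (7.24%). At least 2-fold differences were found at 24208 regions (9.81%). The largest ones mostly went the other way. Among the 3178 regions that differed at least 4-fold (1.29%), 2403 were lower in D2 and 775 higher. The direction of the calls as a whole depended on scaling. With TMM 61.6% of the calls were higher in D2, with loess offsets on abundance 54.3% and with total counts 48.9%, which moved the median over all regions to -0.13 on the log2 scale. Fewer regions were called when B6-13D2 replicate 1 or replicate 2 was left out. A single B6-13D2 library then stands for the line and is assumed to vary like the other groups. The cause of the lower count was not tested. A minimum fold of 1.5 gave 13723 regions. Data were also simulated with the same depths, where D2 differed from B6-13D2 only at 50 regions for each fold. There the test recovered 2% of regions changed 1.5-fold, 30% of those changed 2-fold, 86% at 4-fold and 98% at 8-fold. With so few changed regions the adjusted threshold is stricter than in the real data, so these shares do not measure the power of the real comparison. Among the real calls, 13125 higher and 9126 lower regions differed by under 2-fold.

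Of the distal regions reduced in D2, the 3 with the largest fold changes among those named lay on chromosomes 2 and 12. The region near Gm14409 on chromosome 2 (chr2:177277294-177278309), intergenic and 10258 bp from the nearest start site, had 0.156, 0.214 and 0.115 normalised CPM in the D2 libraries and 19.5 and 21.5 in the B6-13D2 libraries. These values rest on 6, 8 and 4 counts in D2 against 428 and 432 in B6-13D2. It was 123-fold lower in D2 by the fitted log2 fold change of -6.94 (SE 0.27, edgeR adjusted p = 1.16e-30). A second region of this zinc finger gene cluster, 4964 bp from the start of Gm14412 (chr2:177329271-177330671), was at 0.156, 0.321 and 0.344 in D2 and at 23.7 and 27.6 in B6-13D2, which is 93.0-fold lower. The promoter region of Gm14412 itself (chr2:177323991-177325111) had 0.259, 0.562 and 0.630 in D2 and 13.5 and 15.2 in B6-13D2. An intronic region of 2410018L13Rik on chromosome 12 (chr12:23001426-23002640) was 99.0-fold lower in D2. 

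Trim12a encodes a tripartite motif protein of the Trim5-like family, whose members include restriction factors of retroviruses. Its promoter region (chr7:104298742-104300894) had 0.882, 0.830 and 1.15 normalised CPM in D2 and 19.1 and 17.4 in B6-13D2, with a log2 fold change of -4.26 (SE 0.21, edgeR adjusted p = 1.52e-25). In the same gene family, an intron of Trim34a held a region that is 91.5% soft-masked repeat and was 33.4-fold lower in D2. The promoter region of Mid1, an X-linked ubiquitin ligase gene, which is shared with G530011O06Rik (chrX:169978612-169979764), had 2.78, 2.54 and 1.75 in D2 and 21.6 and 18.2 in B6-13D2. Pnp2, a paralog of the purine nucleoside phosphorylase gene Pnp, was at 2.36, 2.28 and 2.52 against 17.6 and 15.6, which is 6.96-fold lower. The promoter regions of Gm4767 and Gm21863 were 13.6-fold and 7.81-fold lower. Several of these genes have near-identical copies, among which the authors' counting could split reads, so their levels are uncertain.

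Other distal regions reduced in D2 lay near or in Pou5f1, Mycn and Ncor1. An intergenic region 14635 bp from the nearest annotated start of Pou5f1, the gene of OCT4 (chr17:35489278-35491383), had 1.32, 0.723 and 0.688 normalised CPM in D2 and 18.9 and 24.4 in B6-13D2, a log2 fold change of -4.55 (SE 0.23, edgeR adjusted p = 2.66e-25). The promoter region of Pou5f1 itself did not pass the test, as given with the pluripotency genes. A region 12376 bp from Mycn, a MYC family gene (chr12:12926537-12928240), had 0.493, 0.428 and 0.487 in D2 and 13.1 and 12.3 in B6-13D2. An intron of Ncor1, which encodes a corepressor of nuclear receptors, held a region that was 24.5-fold lower. Among regions at least 50% soft-masked, the smallest p-values belonged to regions near Ier2 (35.0-fold lower), in Trim34a and in an intron of the histone demethylase gene Kdm4c (24.1-fold lower).

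Of the regions higher in D2 by at least 4-fold, 6.71% were promoter regions, against 8.78% of those lower by at least 4-fold and 14.2% of those not called. The region near Cbx7, a polycomb subunit gene (chr15:79973902-79974209), intergenic and 2783 bp from its start, had 15.3, 16.7 and 14.1 normalised CPM in D2 and 0.864 and 0.648 in B6-13D2, which is 20.1-fold higher (log2 fold change 4.33 with an SE of 0.28, edgeR adjusted p = 8.37e-20). On chromosome 13, a coding exon of Cmya5 held a region (chr13:93096391-93097405) with 32.9, 25.5 and 29.8 in D2 and 2.91 and 2.64 in B6-13D2. An intergenic region 28775 bp from Gm13484 (chr2:50686842-50688204) had 21.9, 19.8 and 22.9 against 2.46 and 2.74. Regions near Oxgr1 and in introns of Arhgap10 and Trappc12 were 9.16-fold, 13.3-fold and 6.83-fold higher in D2. Of the repeat-rich regions, those with the smallest p-values lay near Ust (7.08-fold higher), 77488 bp from Atg7 (10.2-fold higher) and in an intron of Gm47001 (5.36-fold higher).

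At promoters, the gains with the smallest p-values included immune genes. Cd244a encodes a receptor of the SLAM family on natural killer and T cells, and its promoter region (chr1:171558130-171560125) had 28, 27 and 26.7 normalised CPM in D2 and 5.59 and 6.23 in B6-13D2. This is a log2 fold change of 2.20 with an SE of 0.20 (edgeR adjusted p = 2.51e-13). Ifi27, an interferon-induced gene (chr12:103433907-103434511), had 8.79, 8.62 and 7.59 in D2 and 1.501 and 1.64 in B6-13D2. Glrx, which encodes the thiol oxidoreductase glutaredoxin (chr13:75839263-75840772), had 18.4, 18.05 and 18.1 against 4.96 and 4.93. The promoter regions of Gm13276, of the lectin gene Itln1 and of the GABA-A receptor gene Gabre were 10.4-fold, 5.53-fold and 3.94-fold higher. All 12 promoter regions and all 12 distal regions named by rank had D2 and B6-13D2 values that did not overlap, which the rule required and which held for 47.3% of all tested regions.

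**Figure D1:**
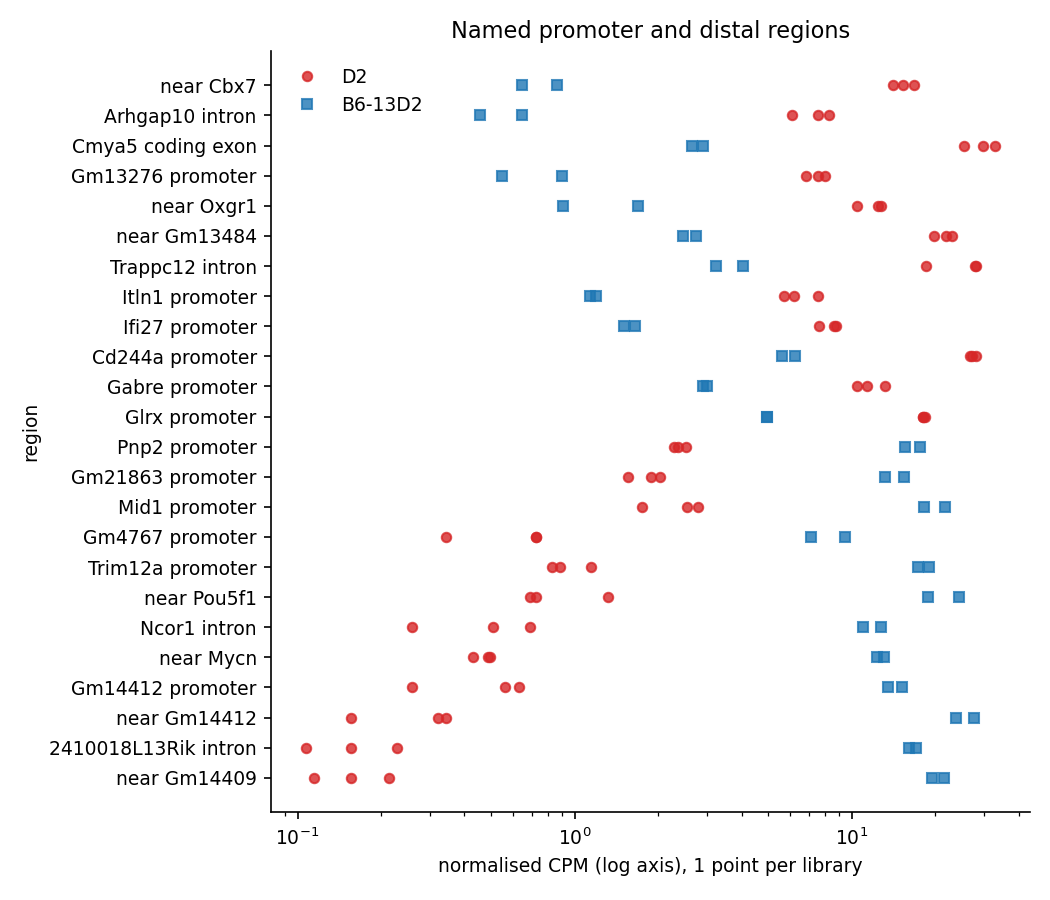
Normalised CPM (horizontal log axis) in each D2 library (circles) and each B6-13D2 library (squares) at the 24 promoter and distal regions named by rank, ordered by log2 fold change. The region near Cbx7 lies highest in the order, and the region near Gm14409 lowest, with D2 values from 0.115 to 0.214 and B6-13D2 values from 19.5 to 21.5.

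The strong losses were rich in repeats. Of the 2403 regions lower in D2 by at least 4-fold, 65.1% were at least 50% soft-masked, that is, marked as interspersed or low-complexity repeat in the reference, against 17.9% of regions not called. For the 775 regions higher by at least 4-fold the share was 29.7%. Among wholly soft-masked regions 16.1% were lower in D2 and 4.31% higher, although these regions together held only 0.258% to 0.300% of counts in D2 and 0.363% to 0.370% in B6-13D2. At the detection floor, 43 regions had at most 3 counts in every D2 library and at least 20 in each B6-13D2 library, and 76.7% of them were at least 50% soft-masked. The converse held for 25 regions, 72.0% of them at least 50% soft-masked. The reference is the C57BL/6J genome. Sequence variants and copy number in D2 were not measured, and their part in these losses was not tested.

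Regions that hold the AP-1 motif were called higher in D2 more often than other regions. The letters TGAGTCA, on either strand within the central 300 bases, occurred in 24674 of the 246840 tested regions. They were found in 30.5% of the regions higher in D2, in 5.44% of those lower and in 7.48% of those not called. Read the other way, 35.3% of AP-1 regions were higher in D2 and 3.94% were lower, against 8.95% and 7.60% of regions without the motif. The median log2 fold change was 0.44 with the motif and -0.03 without it, and 0.32 and -0.16 with total counts. It rose with the number of copies in the window, from 0.37 over 22367 regions with 1 copy to 1.09 over 2104 regions with 2 copies and 1.16 over 203 regions with 3 or more. Of the regions with 2 copies, 66.8% were higher in D2 and 0.951% lower. The shift was not particular to AP-1 among the motifs searched. Of 204 regions with the YY1 motif, 33.8% were higher and 0.980% lower, with a median log2 fold change of 0.45. Of 315 with the NRF1 motif, 26.3% were higher and 4.76% lower, with a median of 0.32. Motifs of pluripotency factors, given below, did not shift this way.

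The same shift appeared in each library. The median log2 CPM of AP-1 regions minus that of other regions was 0.30, 0.39 and 0.34 in the D2 libraries and -0.23 and -0.17 in the B6-13D2 libraries. All D2 libraries were above both B6-13D2 libraries, with means of 0.35 ± 0.04 (SD, n = 3) and -0.20 ± 0.04 (SD, n = 2). With 10 possible arrangements of 5 libraries, the exact permutation p, two-sided, cannot go below 0.2, and it was 0.2 here (0.2 after adjustment over 3 tests). In B6 the difference was -0.20 to -0.14, near that of B6-13D2, and in D2-13B6 it was 0.82 to 1.35, above that of D2. AP-1 regions held 8.30% to 9.05% of counts in D2 and 6.87% to 6.91% in B6-13D2. The motif was singled out from 16 searched after their values were seen.

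**Figure D2:**
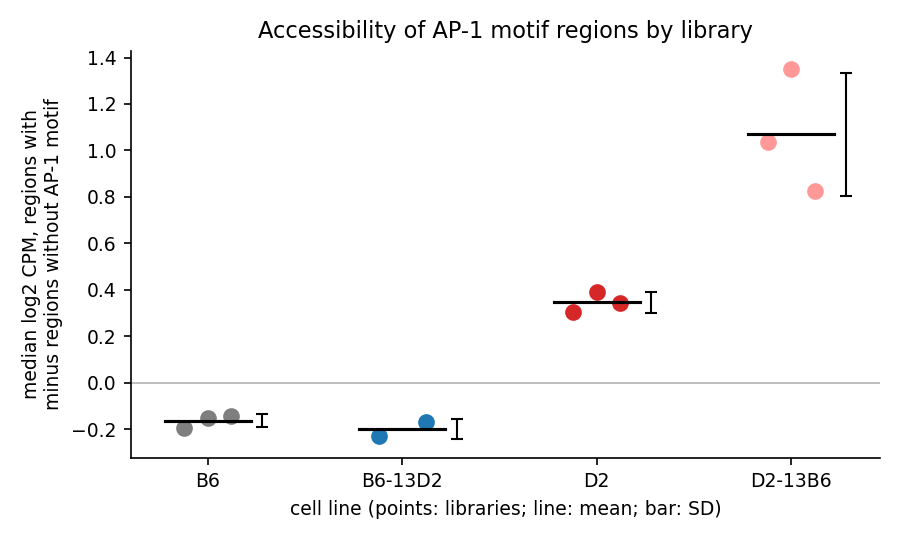
Median log2 CPM of regions with the AP-1 motif minus that of regions without it (vertical axis), by cell line, with 1 point per library, a line at the mean and a bar for the SD. The D2 libraries lie between 0.30 and 0.39 and the B6-13D2 libraries at -0.23 and -0.17, while D2-13B6 reaches 1.35.

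The AP-1 regions with the smallest p-values are shown as the extreme of a class with a median log2 fold change of 0.44. The Ifnar2 intron, in the gene of an interferon receptor subunit (chr16:91398046-91398439), whose window holds 2 copies of the motif, had 8.15, 9.99 and 8.88 normalised CPM in D2 and 1.77 and 1.84 in B6-13D2, which gave a log2 fold change of 2.31 with an SE of 0.24 (edgeR adjusted p = 1.28e-11). The region 11667 bp from Kdr, a VEGF receptor gene (chr5:75990125-75990731), had 14.5, 15.6 and 14.2 against 2.18 and 3.79. Near Igfbp3, a gene of an IGF binding protein, the values were 7.21, 8.41 and 8.62 in D2 and 1.68 and 1.59 in B6-13D2. In D2-13B6 the same regions had means of 18.8, 34.5 and 21.2.

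Promoters of AP-1 genes gave higher calls too. The list of 10 AP-1 subunit genes was added after the motif had been seen, and 5 of its 13 promoter regions were higher in D2 and none lower, with a median log2 fold change of 0.45 against 0.17 for all 38070 promoter regions, of which 19.9% were higher and 5.58% lower. Fosl2 had 45.9, 41.2 and 41.5 normalised CPM in D2 and 20.3 and 23.1 in B6-13D2 (log2 fold change 0.98, SE 0.20, edgeR adjusted p = 0.000138). Jun had 99.9, 83.8 and 106 against 59.3 and 54.8 (log2 fold change 0.76). With loess offsets 2 of the 13 were called higher. The other genes called with TMM were Atf3, Jund and Fosl1. At promoter regions, markers of fibroblasts, which serve as feeder cells, moved the same way. Of their 16 promoter regions, 5 were higher in D2 and none lower (loess offsets gave 4 higher and 1 lower), led by smooth muscle actin Acta2 with 8.12, 9.40 and 7.59 against 3.23 and 2.89, the calcium-binding S100a4 with 9.03, 12.5 and 10.3 against 5.78 and 4.93, and the transcription factor gene Twist1. The remaining calls were the collagen genes Col1a1 and Col1a2. The sum over the whole list was 156 to 168 normalised CPM in D2 and 117 to 130 in B6-13D2. Of the 10 genes, 9 had a promoter region, and Col3a1 had none in the table. Over the gene bodies of this list, 7 of 36 regions were higher and 2 lower. With loess offsets, and also with total counts, 6 were higher and 5 lower. Whether feeder fibroblasts or another cell type contributed to the AP-1 shift was not tested.

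The motifs searched for pluripotency factors, those of OCT4, SOX, ESRRB and KLF, were all more frequent in lower than in higher regions. The OCT4-SOX2 composite motif, TTG and ATGCAAA with 2 free bases between them, occurred in 657 regions (0.266%), of which 14.0% were lower in D2 and 4.87% higher. The OCT4 octamer ATGCAAAT was found in 4.21% of the regions lower in D2, 2.04% of those higher and 3.29% of those not called. For the ESRRB motif TCAAGGTCA the shares were 1.52%, 0.573% and 1.47%, and for the SOX motif AACAATGG they were 2.07%, 1.04% and 1.84%. The KLF motif GGGTGTGGC was in 2.05%, 1.395% and 2.21%, and 7.70% of the regions that hold it were higher in D2 and 7.06% lower. The ESRRB, SOX and KLF motifs were thus less frequent among higher regions, and close among lower and uncalled ones. The cyclic AMP response element TGACGTCA, bound by CREB and ATF proteins, was in 0.899% of higher, 0.146% of lower and 0.399% of uncalled regions. TEAD (CATTCCA) was in 8.03%, 5.34% and 6.52%. A match to these letters is a description and not evidence of binding.

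At naive pluripotency genes, lower calls were frequent in the gene bodies. Of 87 tested regions that overlap the bodies of 14 naive pluripotency genes, 20 were lower in D2 (23.0%) and 4 higher, with a median log2 fold change of -0.42, against 7.24% lower and a median near zero for all regions. This set includes promoter regions that overlap the genes. The lower calls numbered 35 with total counts and 39 with loess offsets. Esrrb, which encodes an orphan nuclear receptor that sustains self-renewal, had 6 of 26 regions lower and none higher. Its intronic region at chr12:86476487-86481221 had 15.5, 18.5 and 15.0 normalised CPM in D2 and 25.9 and 31.5 in B6-13D2 (log2 fold change -0.81, SE 0.19, edgeR adjusted p = 0.000787). The locus of Tfcp2l1, a STAT3 target that maintains the naive state, had 4 of 9 regions lower and none higher. Its intronic region at chr1:118671403-118672697 had 4.23, 3.94 and 2.52 against 7.69 and 6.98. A region of Klf5 overlapping an exon (chr14:99315014-99316124) had 2.23, 1.79 and 2.78 against 6.73 and 4.38, a log2 fold change of -1.30, while its promoter region was higher in D2. Nr5a2 had 3 of 24 regions lower and 1 higher, and Fgf4 had 2 of 5 lower. These body regions were examined after the promoter counts had been seen.

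The direction of the calls at naive promoter regions depended on scaling. Of 25 naive promoter regions 3 were higher in D2 (Klf5, Klf4 and Tbx3, all transcription factor genes) and 1 was lower (Dppa3), with a median log2 fold change of -0.13, but loess offsets gave none higher and 13 lower, and total counts gave 3 and 8. Dppa3, a germline and naive state marker, had 5.24, 4.98 and 5.24 normalised CPM in D2 and 8.05 and 8.67 in B6-13D2. Of 13 core pluripotency promoter regions 2 were lower, both of the RNA-binding protein gene Lin28a, and none higher (loess offsets gave 8 lower). The promoter region that spans the Pou5f1 start, at chr17:35501875-35507508, had 59.8, 62.5 and 49.97 in D2 and 64.6 and 69.9 in B6-13D2 (log2 fold change -0.23, SE 0.18, edgeR adjusted p = 0.452). Sox2 had a log2 fold change of 0.25 (edgeR adjusted p = 0.391) and Nanog one of -0.26 (edgeR adjusted p = 0.358), and neither passed the test. A region of Nanog overlapping an exon further into the gene (chr6:122714423-122716907) was lower, with 8.28, 10.1 and 9.40 against 13.8 and 15.9.

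Apart from the fibroblast list (5 of 16, 31.3%), promoter regions of other cell types' markers were called no more often than all promoter regions (25.4%). Formative and primed genes had 2 of 19 promoter regions lower (Otx2 and Dnmt3a) and none higher, and neural genes had 2 of 15 lower, both of Pax6. Primitive endoderm genes had 2 of 11 higher, both of the endocytic adaptor gene Dab2, whose larger region had 17.2, 15.6 and 17.8 normalised CPM in D2 and 7.28 and 9.17 in B6-13D2. No region was called among 9 of primitive streak genes, 12 of trophoblast genes and 6 of 2-cell-like genes. Over gene bodies, 9 of 35 regions of neural genes were called (3 higher and 6 lower), 7 of 44 of primitive endoderm, 6 of 72 of formative and primed, 3 of 17 of primitive streak and 2 of 35 of trophoblast genes, against 18.8% of all regions. Total counts and loess offsets added lower calls to several of these lists, including 3 and 2 for primitive endoderm, 3 and 4 for trophoblast and 1 and 2 for primitive streak.

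Promoter regions of signalling genes were read against the 19.9% higher and 5.58% lower of all promoter regions. The LIF and STAT3 list, through which LIF sustains self-renewal, had 6 of 23 promoter regions higher and none lower (3 and 1 with loess offsets). Lifr, the LIF receptor gene, had 20.8, 17 and 21.8 normalised CPM in D2 and 12.1 and 11.4 in B6-13D2, and Jak1 and Stat3, its kinase and transcription factor, had log2 fold changes of 0.73 and 0.72. Among FGF and MEK targets 1 of 12 was higher (Etv5), and among WNT and GSK3 targets 1 of 14 (Nkd1), both below the share of all promoter regions. With loess offsets neither list had a higher call, and they had 2 and 4 lower ones. Over the gene bodies of these lists, 11 of 77 regions were higher and 6 lower for LIF and STAT3, 2 of 35 and 1 for FGF and MEK targets, and 1 of 93 and 9 for WNT and GSK3 targets.

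Promoter regions of chromatin genes were mixed and followed scaling. In the list of heterochromatin and KRAB repression genes 7 of 49 promoter regions were higher and 4 lower, close to the share of all promoters, and loess offsets gave 2 and 9. Ehmt1, an H3K9 methyltransferase gene, had a region near one of its annotated starts at 1.66, 2.03 and 1.98 in D2 and 5.28 and 4.83 in B6-13D2 (log2 fold change -1.42, SE 0.23, edgeR adjusted p = 3.26e-06). Smarcad1, a chromatin remodeler gene, had a region at a further annotated start that fell from 11.5 and 11 in B6-13D2 to 5.5, 5.89 and 4.5 in D2. Atf7ip, a SETDB1 partner, rose by 0.89 on the log2 scale. The main promoter region of Trim28 had 73.2, 61.3 and 76.9 in D2 and 54.4 and 51.7 in B6-13D2 (log2 fold change 0.41, edgeR adjusted p = 0.147), and Setdb1 had 0.35 (edgeR adjusted p = 0.264). Genome architecture genes had 14 of 30 higher and 2 lower, with a median of 0.44, but loess offsets gave 7 and 5. The main region of the cohesin release factor gene Wapl had 41, 32 and 36.4 in D2 and 21 and 21.8 in B6-13D2, while a region at a further annotated start of Wapl was lower (log2 fold change -2.31). Pds5a, a cohesin regulator gene, had a region at 5.03, 6.72 and 4.84 against 2.05 and 1.99, and Ctcf had a log2 fold change of 0.55 (edgeR adjusted p = 0.0376). Polycomb genes had 8 of 36 higher and 2 lower (1 and 6 with loess offsets), with Bmi1 and Ezh2, which encode polycomb subunits, at log2 fold changes of 0.80 and 0.70. DNA methylation genes had 3 of 24 higher and 1 lower (1 and 7 with loess offsets), led by the dioxygenase gene Tet3 with 29.5, 24.7 and 21.8 against 12.7 and 16.4. The other higher calls were a further Tet3 region and the methyltransferase gene Dnmt1, and the lower one was Dnmt3a.

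Imprinted genes, which are expressed from 1 parental allele, had 13 of 39 promoter regions higher in D2 (33.3%, against 19.9% of all promoter regions) and 1 lower (2.56% against 5.58%). The median log2 fold change was 0.44, against 0.17 for all promoter regions, and the split was 12 and 2 with loess offsets. Grb10, a growth inhibitor gene, had 9.88, 10.6 and 10.3 normalised CPM in D2 and 3.96 and 3.04 in B6-13D2 (log2 fold change 1.55, SE 0.23, edgeR adjusted p = 3.58e-07). Airn, the noncoding RNA gene that overlaps Igf2r, had 24.7, 24.4 and 20.9 against 10.9 and 12.3, and Peg13 had 34.8, 29.0 and 28.5 against 16.1 and 15.2. Counts were not split by allele.

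Promoters as a class were higher in D2 with TMM, at 19.9% higher and 5.58% lower, against 10.7% and 7.58% of introns and 10.2% and 7.47% of intergenic regions. Promoter regions held 42.3% to 44.9% of counts in D2 and 38.9% to 39.0% in B6-13D2. By abundance over all regions, 30.9% of the most abundant 10% were higher and 6.60% lower, against 1.08% and 8.08% of the least abundant 10%. Loess offsets on abundance left 11.6% of promoter regions higher and 9.96% lower. AP-1 regions kept their direction under these offsets, at 34.5% higher and 4.68% lower. Within every annotation class, regions with the motif were more often higher than those without it, from 32.9% against 18.96% at promoters to 37.9% against 7.19% in introns.

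**Figure D3:**
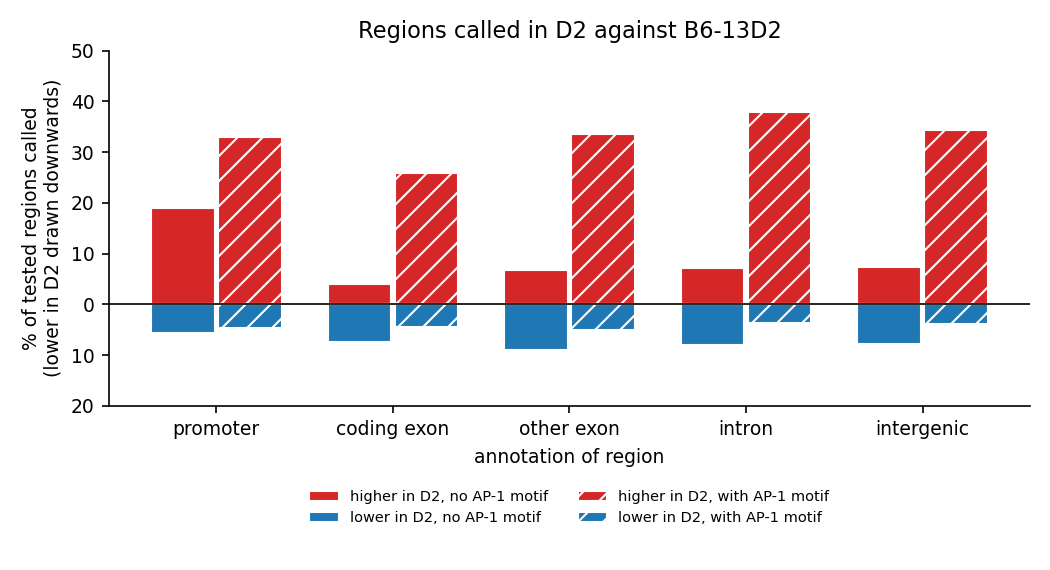
Percent of tested regions higher in D2 (red, upwards) and lower in D2 (blue, downwards) by annotation, without (plain bars) and with (hatched bars) the AP-1 motif. Hatched red bars exceed plain red bars in all 5 classes, by the smallest ratio at promoters, where 32.9% and 18.96% were higher.

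On chromosome 13 the zinc finger cluster of the exchanged interval is of D2 origin in both lines. A smaller share of its regions was called than on the rest of the chromosome, but typical fold changes were similar. The median absolute log2 fold change was 0.364 from 65 to 68 Mb, 0.370 outside 60 to 70 Mb and 0.375 on other chromosomes. The window from 60 to 70 Mb was taken from earlier calls of B6-13D2 against B6, which share the B6-13D2 libraries, so its values are a description. In it 182 of 1170 regions differed between D2 and B6-13D2 (15.6%), of which 110 were higher and 72 lower. Without B6-13D2 replicate 1 the share was 7.70% and without replicate 2 it was 7.01%. Across the zinc finger cluster from 65 to 68 Mb 43 of 450 regions differed (9.56%), 12 higher and 31 lower. Of these, 2 differed by at least 4-fold, both higher in D2. The log2 fold changes of the calls ranged from -1.97 to 5.51. The 2 regions of the cluster named below were ranked by p-value and are not its largest differences. The rest of the chromosome had 17.7% and the other chromosomes 18.9%. In 1 Mb bins the share was 10% at 65 Mb, 8.09% at 66 Mb and 11.02% at 67 Mb, which lies within the range of 90% of 2507 such bins across the genome (7.10% to 29.8%), so the share alone does not set the cluster apart. For D2 against B6, where the interval differs as well, 50.7% of regions from 65 to 68 Mb were called, 73 regions by at least 4-fold, and 22.5% of all regions (13.7% higher and 8.8% lower). That comparison shares the D2 libraries with the present one. From 58 to 65 Mb 18.8% of regions differed between D2 and B6-13D2, and 26.1% between D2 and B6.

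Within the cluster, the region in an intron of Gm48166 (chr13:65626856-65627215) had 0.908, 0.991 and 1.09 normalised CPM in D2 and 3.05 and 3.99 in B6-13D2 (log2 fold change -1.82, SE 0.33, edgeR adjusted p = 2.20e-05), while B6 was at 0.177 ± 0.0555 (SD, n = 3). The intergenic region 5081 bp from BC048507 (chr13:67856809-67858245) had 4.23, 5.11 and 3.07 against 9.01 and 8.72, where B6 was at 9.61 ± 0.670 (SD, n = 3). B6-13D2 thus resembled neither D2 nor B6 at the first region and lay near B6 at the second. Outside 60 to 70 Mb, 0.962% of the regions of chromosome 13 were called with at least a 4-fold difference, against 1.30% on other chromosomes. Beside Cmya5, an intron of Ankrd31 was 3.97-fold higher in D2, and repeat-rich regions near Tcrg-C3 and Gm47746 were 18.03-fold and 19.6-fold lower.

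**Figure D4:**
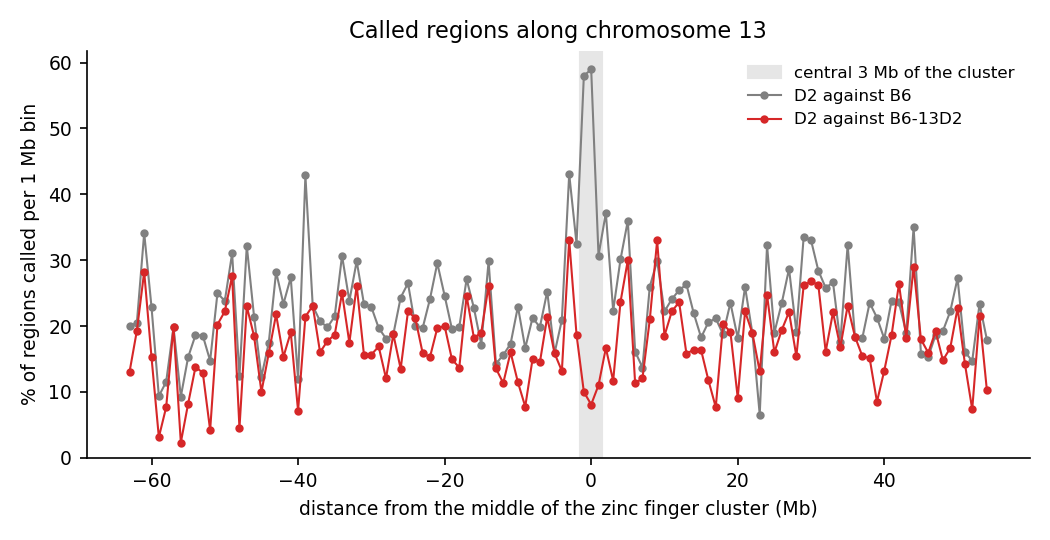
Percent of regions called per 1 Mb bin (bins with at least 20 regions) along chromosome 13, against distance in Mb from the middle of the zinc finger cluster, for D2 against B6-13D2 (red) and D2 against B6 (grey). In the shaded 3 Mb the red line is at 8.09% to 11.02%, while the grey line has its highest values of the chromosome there.

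The same difference of background was measured a second time, with the B6 interval in both lines, by D2-13B6 against B6, which shares no library with D2 against B6-13D2. That comparison called 102971 regions (41.7%), 21.6% higher and 20.1% lower. Of the 46459 regions called between D2 and B6-13D2, 38260 were called there too, 38032 with the same sign and 228 with the opposite sign. The shared calls of the same sign were 81.9% of the first list and 36.9% of the second. By direction, 86.6% of the regions higher in D2 and 74.3% of those lower were shared. Log2 fold changes of both comparisons had a Pearson's r of 0.71 and a Spearman's rho of 0.63 across the 246840 regions, which are not independent and share the cell lines' background. In D2-13B6 against B6, the median log2 fold change was -0.50 on chromosome 13 and 0.15 on chromosome 11, against -0.21 to -0.07 on the other 17 autosomes. Without chromosomes 11 and 13, 34070 of 41498 calls were shared with the same sign (82.1%). Leaving out B6-13D2 replicate 1 or 2 gave 21051 or 21409 shared calls.

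**Figure D5:**
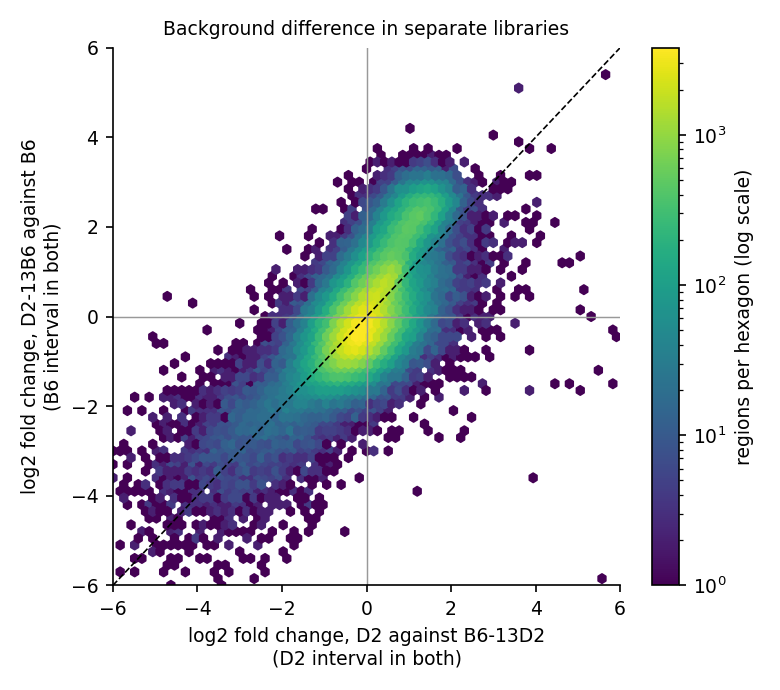
Log2 fold change of D2 against B6-13D2 (horizontal axis) and of D2-13B6 against B6 (vertical axis) for all tested regions within 6 log2 units, coloured by the number of regions per hexagon on a log scale, with a dashed line of equal values. Most regions lie around a rising diagonal, and regions higher in both lie above the dashed line, with medians of 1.04 and 1.66 for those called higher in D2.

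The sizes differed between both measurements at 16142 regions (6.54%) by the interaction contrast, which is the D2 against B6-13D2 difference minus the D2-13B6 against B6 difference. It was positive at 4917 regions (1.99%) and negative at 11225 (4.55%). Leaving out D2 replicate 1 gave 8229 regions, and leaving out B6-13D2 replicate 1 or 2 gave 6471 or 4743. AP-1 regions made up 41.0% of the negative calls and 3.23% of the positive ones. Their median log2 fold change was 0.44 between D2 and B6-13D2 and 0.93 between D2-13B6 and B6. At pluripotency loci the calls of both comparisons had the same sign in the examples above, with log2 fold changes between D2-13B6 and B6 of -1.29 at the Esrrb intron and -1.16 at the Klf5 exon. The region near Cbx7 had 4.33 and 3.71 in the respective comparisons, and the region near Gm14409 had -6.94 and -6.11.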

How the data were processed

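ATAC-seq counts per region were taken from 1 table that the authors deposited without normalization, covering 11 libraries. Per the file headers, duplicates and mitochondrial reads had been removed. Per the submitters' processing notes, Trimmomatic 0.39, BWA 0.7.5, Picard 2.0.1, MACS 1.4.2, bedtools 2.9.2, edgeR 3.34.1 and the build mm10 were used. How the regions were merged, multiply mapping reads were treated and cuts were shifted is not given in the sources used here. Coordinates are printed as listed, and sequence windows are 1-based.

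Counts were fitted with edgeR 4.0.16 (R 4.3.3) by the quasi-likelihood test, with TMM, filterByExpr (1496 regions removed) and 1 coefficient per line over all 11 libraries. Benjamini-Hochberg adjustment ran over 246840 regions, and an adjusted p under 0.05 was a call. Standard errors were derived from fold change and F. Normalised CPM are CPM of the TMM-scaled library total, and a prior count of 2 entered log2 CPM. Regions were annotated with GENCODE M21 on GRCm38, and a promoter region lies within 1000 bp of a start site. Motifs were searched in the central 300 bases. Tests on simulated data made 9 false calls, 7.69% of calls, over 246619 regions.

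Regions were named by smallest p among calls without overlap between lines, with 6 in each direction for promoters and for distal regions, 3 for repeat-rich regions and 2 for chromosome 13. Up to 3 genes were named per list, except where stated. List calls were named in full where 5 or fewer, and pluripotency gene bodies, AP-1 regions and bins were chosen after their values were seen. The comparison, lists, motifs and rule were chosen with earlier results of these data known. Replicate numbers did not pair the lines, since deviations of same-numbered libraries correlated at -0.03 to 0.05. Chromosomes 18 and Y were not used for named regions. Intervals and floors cover counting error only. Alternatives were DESeq2 1.42.0, other scalings and filters, GC-content and loess offsets, thinning, the replicate block and leaving out each library.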

Additional observations from a re-analysis of the deposited data

Results flagged for a closer look

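The difference between D2 and B6-13D2 was set against the difference between D2-13B6 and B6 by a test of the difference itself, edgeR's interaction contrast with Benjamini-Hochberg adjustment, and 16142 regions passed it. Positive values mean a more positive log2 fold change with the D2 interval in both lines. Of the named regions 13 passed. Those more strongly higher in D2 against B6-13D2 were the Arhgap10 intron at 2.62 (edgeR adjusted p = 0.000327), the Cmya5 exon at 1.79, the Gm47001 intron at 1.69, the region near Oxgr1 at 1.11 and the Ifi27 promoter region at 1.00. At the Arhgap10 intron D2-13B6 had 1.60 ± 0.347 normalised CPM (SD, n = 3), against 7.31 ± 1.12 in D2 (SD, n = 3).

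Those more strongly lower in D2 against B6-13D2 were the Mid1 promoter region at -1.57, the region near Gm14412 at -1.43, the Ncor1 intron at -1.33, the region near Ier2 at -1.23, the Trim12a promoter region at -1.20, the region near Pou5f1 at -1.14, the Gm4767 promoter region at -1.13 and the Pnp2 promoter region at -0.97. In all 13 regions both comparisons had the same sign. The Cmya5 exon lies on chromosome 13 and the Ncor1 intron on chromosome 11. The median log2 fold changes of these chromosomes in D2-13B6 against B6 were -0.50 and 0.15. Named regions were ranked on D2 against B6-13D2, which favours larger values there. No line had 4 libraries, so single libraries were not tested for standing apart.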

How the results depend on the processing

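All 40 named regions kept their direction and their call under all 17 alternatives. The count of regions called was 13723 with a minimum fold of 1.5, 40671 with DESeq2, and 24644 to 44218 when 1 of the 5 libraries was left out. The percent of calls higher in D2 fell below 50 with total counts (48.9), and was 60.4 with RLE, 60.9 with only the 5 libraries, 65.6 with a minimum fold of 1.5, 54.3 with loess offsets, 60.2 with GC-content offsets, 62.5 with D2 thinned and 59.99 to 70.6 with 1 library left out. From 60 to 70 Mb of chromosome 13, the percent called was 18.5 with total counts, 18.3 with at least 1 CPM in 2 libraries, 12.7 with DESeq2, 21.2 with only the 5 libraries, 3.59 with a minimum fold of 1.5, 13.5 with GC-content offsets and 7.01 to 14.3 with 1 library left out. Shared calls of the same sign numbered 11758 with a minimum fold of 1.5 and 21051 to 36385 with 1 library left out. The interaction gave 975 regions with a minimum fold of 1.5 and 4743 to 18524 with 1 library left out. The AP-1 share of higher regions was 26.9% to 46.3% under the same settings, highest with the minimum fold of 1.5. The replicate block, for numbers that do not pair the libraries, gave 49985 regions, 62.3% of them higher in D2, and 14154 for the interaction. The count of regions called was 56376 with only the 5 libraries and 51057 with total counts, against 46459 as reported. The cause of these changes was not tested, except that a minimum fold removes calls by construction. B6-13D2 had only 2 libraries, each with fewer counts than any D2 library.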

Other observations

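Bins of 250 kb with at least 12 tested regions were ranked by their median log2 fold change of D2 against B6-13D2 (7227 bins, of which 90% lay between -0.33 and 0.41), and all bins named here were chosen after their values were seen. The lowest were 42500 to 42750 kb of chromosome 14, with a median of -4.56 over 12 regions, and 177250 to 177500 kb of chromosome 2, which holds Gm14403, Gm14409, Gm14412, Gm14418 and Zfp970, with -3.84 over 26 regions, 24 of them lower and none higher. The bin from 112000 to 112250 kb of chromosome 4, with Skint1, Skint3 and Skint4, was at -3.47, with 11 of 14 regions lower. In D2-13B6 against B6, which shares no library, these 3 bins had medians of -3.79, -2.97 and -2.52. Toward gain, 61500 to 61750 kb of chromosome 4, with the major urinary protein genes Mup16, Mup17 and Mup18, had a median of 1.35 over 13 regions, 6 of them higher and 3 lower, and 66750 to 67000 kb, with the innate immune receptor gene Tlr4, had 1.23, with 11 of 19 regions higher and none lower. At 171500 to 171750 kb of chromosome 1, with Cd244a, Cd48, Ly9 and Slamf7 of the SLAM family, 20 of 40 regions were higher and 1 lower.

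On chromosome 17 a block around Glo1, the glyoxalase gene, was higher as a whole. From 30.4 to 30.95 Mb, bounds chosen after the values were seen, 101 of 111 regions had a positive log2 fold change, 47 were called higher and none lower. The median log2 fold change was 0.62, and the medians of the 3 D2 libraries relative to the B6-13D2 mean were 0.65, 0.73 and 0.51. The flanking 0.5 Mb windows had medians of -0.16 and -0.32. In D2-13B6 against B6 the block had a median of 0.49, with 99 of 111 regions positive. The Glo1 promoter region (chr17:30611352-30613002) had 47.7, 45.4 and 38.1 normalised CPM in D2 and 20.1 and 22.3 in B6-13D2. A duplication that covers Glo1 is known in some inbred strains, and copy number was not measured here. Of the list of genes with known D2 or B6 variants, 8 of 28 promoter regions were higher (28.6%, against 19.9% of all promoter regions) and none lower. Of these 4 were at Glo1, and the others at Cdh23, Myo5a, Klrd1 and Ahr.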
